A study of Mus musculus with 10 samples.

Results

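Cathepsins are proteases that work mainly inside lysosomes, the acidic compartments in which a cell breaks down proteins delivered by endocytosis or autophagy. The group examined here comprises 10 genes of the authors' gene table, chosen by symbol from the 55359 genes listed. They are *Ctsa*, *Ctsb*, *Ctsc*, *Ctsd*, *Ctsf*, *Ctsh*, *Ctsk*, *Ctsl*, *Ctss* and *Ctsz*, and 7 of them were expressed highly enough to be tested. *Ctsd* encodes an aspartic protease and *Ctsa* a serine carboxypeptidase, while the other 8 encode cysteine proteases of the papain family.

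Cathepsins are made as inactive precursors, tagged with mannose 6-phosphate in the Golgi, carried to endosomes by mannose 6-phosphate receptors, and activated by cleavage at acidic pH. Cystatins and some serpins inhibit the cysteine cathepsins that escape from lysosomes or are secreted, and the transcription factors TFEB, TFE3 and MITF drive many lysosomal genes. In muscle, lysosomal proteolysis is one of the routes by which fibres turn over their proteins, and cathepsin B and cathepsin L have long been used as readouts of it. Every member carried a lysosome annotation in the authors' table (10 of 10 in GO and 10 of 10 in KEGG). Of the 10, 9 were also annotated to the extracellular space and 5 to collagen-containing extracellular matrix.

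The libraries came from C2C12, an immortalized mouse myoblast line that forms myotubes at low serum. Cells received 100 nM of either a control siRNA (si-Control, 5 libraries) or an siRNA against *Fndc1* (si-*Fndc1*, 5 libraries). They were collected on day 4 of differentiation in medium with 2% horse serum, though the series description names another time point. The sources also differ on the transfection reagent, which is RNAiMAX in one and jetPRIME in the paper's methods. *Fndc1* encodes a secreted protein with fibronectin type III domains, and the comparison asks which transcripts differ when it is reduced during differentiation. Nothing in the labels says that the libraries of a group came from separate cultures, so p-values measure the spread between these libraries only. The cells are of 1 line and the knockdown is transient.

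Counted reads per library ran from 66771605 to 75995168 (si-Control) and from 56332844 to 72839369 (si-*Fndc1*). The targeted gene, *Fndc1*, had 27.8 ± 2.04 FPKM (fragments scaled by transcript length and library size, SD, n = 5) in si-Control and 20.9 ± 1.70 FPKM in si-*Fndc1*, and no si-*Fndc1* library reached the lowest si-Control library. Over 11185 genes with a known GC content, the log2 fold changes correlated with GC content (Spearman's rho -0.53, a description across genes that share the same libraries). With the trends of GC content and transcript length removed together, the log2 fold change of *Fndc1* went from -0.40 to -0.07 (adjusted p = 0.301, edgeR). GC content was not corrected alone. A list of 12 hepatocyte markers summed to 0.0443 to 5.99 FPKM in the si-Control libraries but 47.5 to 170.2 FPKM in the si-*Fndc1* libraries. All 11 that could be tested rose, where 17.3% of all tested genes did. Except for *Alb*, their si-Control means were below 0.5 FPKM, the mean over all libraries that the test required. They reached it only through the si-*Fndc1* libraries, so their direction was fixed by the filter. The share of 17.3% is therefore no measure for them. The part of these liver transcripts and of GC content in the differences below was not tested. Corrected values, where given, are for GC content and length together. Of 10 myotube markers, which include the muscle actin *Acta1* at 1898 FPKM in si-Control, all were expressed above the level needed for the test. Of these 10, 3 (*Ckm*, *Mymk* and *Myod1*, named after their values were seen) were called higher, against 17.3% of all tested genes. Their log2 fold changes were 0.39, 0.26 and 0.16. The other 7 were not called, and the median over the 10 was -0.0034. TPM called 1 higher and 4 lower (7.57% and 34.3% of all genes), and so did quantile normalization (15.7% and 18.7%). Correction for GC content and length called 2 higher and 1 lower (11.4% and 12.2%). The part of the myotube markers in the cathepsin differences was not tested.

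The level of the cathepsins was measured first, since FPKM values are divided by transcript length and allow genes to be ordered. *Ctsd* was the most abundant, at 379 ± 9.58 FPKM in si-Control, above 99.5% of the tested genes. *Ctsb* (213 ± 5.68 FPKM), *Ctsz* (123 ± 4.77 FPKM), *Ctsl* (78.5 ± 9.14 FPKM) and *Ctsa* (45.5 ± 1.77 FPKM) followed, all SD with n = 5. *Ctsf* and *Ctsh* were much lower, at 2.25 ± 0.195 and 1.26 ± 0.158 FPKM. By their means over all libraries they lay above 27.3% and 17.5% of the tested genes. *Ctsc*, *Ctsk* and *Ctss* had means of 0.214, 0.124 and 0.0376 FPKM.

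The order of the means was the same in both groups. Neighbours in this order had ranges that did not overlap, except *Ctsc* with *Ctsk* and *Ctsk* with *Ctss* in both groups, and *Ctsf* with *Ctsh* in si-*Fndc1*. The 10 genes together took 0.336% to 0.353% (si-Control) and 0.333% to 0.355% (si-*Fndc1*) of the counted reads, so the groups overlapped.

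**Figure D1:**
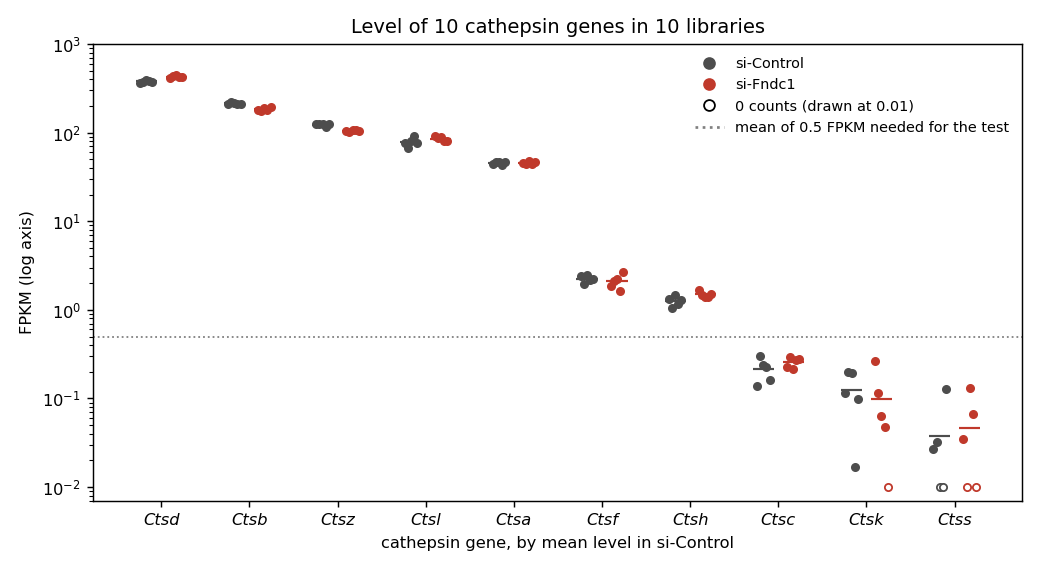
Level in FPKM (log axis) of the 10 cathepsin genes, ordered by their mean in si-Control. Each point is 1 library, short lines are group means of 5 libraries, open points have 0 counts, and the dotted line is the mean of 0.5 FPKM required for the test. *Ctsd*, *Ctsb*, *Ctsz*, *Ctsl* and *Ctsa* lie between 42.8 and 452 FPKM in every library, whereas *Ctsc*, *Ctsk* and *Ctss* stay below 0.5 FPKM in every library.

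The sequences upstream of the cathepsin genes are shown because TFEB and its relatives bind E-boxes with the letters CACGTG, and because a member of that family, *Tfeb*, was called lower in si-*Fndc1* (log2 fold change -0.46), a call not made with GC content and length corrected (-0.16, adjusted p = 0.0937, edgeR). RefSeq start sites on the mouse build GRCm38.p6 gave 9 windows of 250 bases before the start for 8 of the 10 members, with 2 windows for *Ctsa*. *Ctsb* and *Ctsh* had no window in the table used. CACGTG, which reads the same on both strands, was found in 4 of the 9 windows (44.4%), those of *Ctsd*, *Ctsa*, *Ctsf* and *Ctsl*, against 6.02% of the 32851 windows of all genes. The longer form TCACGTG, which contains CACGTG and was searched on both strands, was found in 2 of the 9 windows (*Ctsd* and *Ctsa*) against 3.13% of all windows. CACGTG with GT before it and AC after it was found in 0 of the 9 windows and in 0.24% of all windows. Other lysosomal genes also held CACGTG often, in 20.9% of 43 windows of the other hydrolases, 25% of 16 windows of the membrane proteins and 37.5% of 8 windows of the sorting genes. The shares for TCACGTG were the same in those lists, against 22.2% for the cathepsins.

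Printed 5′ to 3′ on the strand of the gene, with CACGTG in capitals, are the windows of *Ctsd*, which rose and has the letters beginning 245 and 98 bases before the start, of *Ctsa*, which was not called and has them 12 bases before the start, and of *Ctsz*, which fell and has none. They lie at chr7:142387828-142388077 (minus strand), chr2:164833523-164833772 (plus strand) and chr2:174439040-174439289 (minus strand) of GRCm38.p6. A match describes the letters of the window and not a bound site. *Ctsf* and *Ctsl* also hold the letters and were not called, and *Ctsb*, which fell, had no window. The rise of *Ctsd* was not called under quantile normalization or TPM. These windows therefore do not show whether the letters go with a direction.
Ctsd: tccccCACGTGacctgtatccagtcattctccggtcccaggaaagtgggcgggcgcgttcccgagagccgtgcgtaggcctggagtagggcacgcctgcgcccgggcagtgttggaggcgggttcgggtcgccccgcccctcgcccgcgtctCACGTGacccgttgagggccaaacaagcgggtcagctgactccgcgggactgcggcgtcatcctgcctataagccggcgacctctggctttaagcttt
Ctsa: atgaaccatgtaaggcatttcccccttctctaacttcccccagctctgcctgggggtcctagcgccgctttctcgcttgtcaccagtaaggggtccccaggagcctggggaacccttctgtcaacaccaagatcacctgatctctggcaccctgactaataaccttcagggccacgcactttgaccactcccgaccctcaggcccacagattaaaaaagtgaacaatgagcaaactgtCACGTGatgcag
Ctsz: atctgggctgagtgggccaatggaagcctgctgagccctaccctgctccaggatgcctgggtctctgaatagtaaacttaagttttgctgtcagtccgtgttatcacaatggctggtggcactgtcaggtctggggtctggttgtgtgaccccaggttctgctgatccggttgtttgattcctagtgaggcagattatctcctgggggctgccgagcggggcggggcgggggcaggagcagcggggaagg

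The comparison of si-*Fndc1* with si-Control was made with edgeR's quasi-likelihood test over the 13548 genes with a mean of at least 0.5 FPKM, with Benjamini-Hochberg adjustment over all of them, and a gene was called at an adjusted p-value under 0.05. Of the 7 cathepsin genes tested, *Ctsd* rose, *Ctsb* and *Ctsz* fell, and *Ctsl*, *Ctsa*, *Ctsf* and *Ctsh* were not called. The rise of *Ctsd* turned into a difference of -0.03 (log2) under quantile normalization. Of all tested genes 17.3% were called higher and 17.2% lower (34.4% in either direction), so 1 and 2 of 7 do not set the cathepsins apart from other genes. The same 3 genes were the ones whose groups did not overlap on the CPM scale (counts divided by library size), 1 higher and 2 lower, where 12.8% and 12.3% of all tested genes (25.1% together) did so. The median log2 fold change was 0.015 over the 7 cathepsins and 0.0043 over all tested genes.

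**Figure D2:**
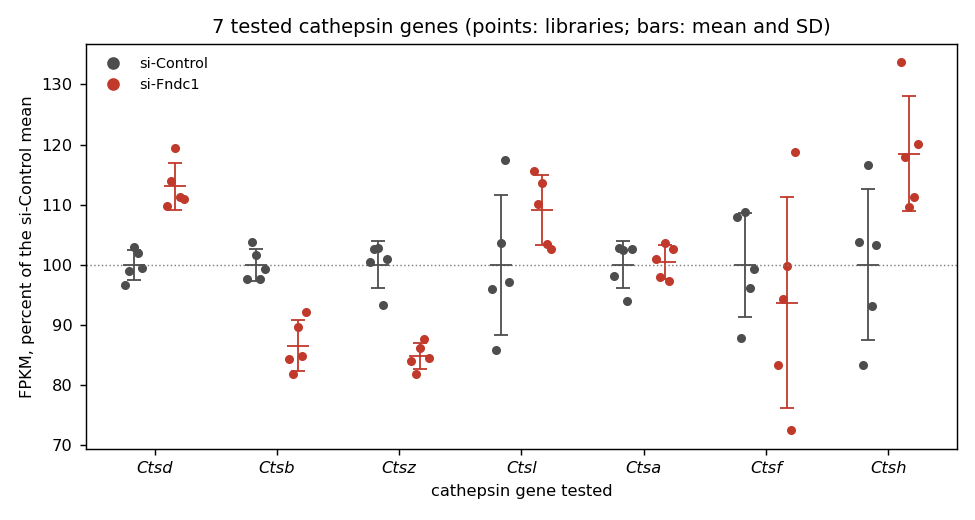
FPKM of the 7 tested cathepsin genes as a percentage of the si-Control mean of each gene, with 1 point per library and bars for the mean and SD of 5 libraries. All 5 si-*Fndc1* points of *Ctsd* lie above, and all 5 of *Ctsb* and of *Ctsz* below, the si-Control points of the same gene, a split that *Ctsd* loses under quantile normalization (-0.03, log2), and the groups overlap for *Ctsl*, *Ctsa*, *Ctsf* and *Ctsh*.

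*Ctsd* (ENSMUSG00000007891, listed on chromosome 7 from 141929648 to 141941775, minus strand) encodes cathepsin D, an endoprotease that starts the breakdown of many lysosomal substrates and also cleaves the precursors of other cathepsins. Its level was 366, 375, 390.1, 386 and 377 FPKM in the si-Control libraries 1 to 5, and 416, 431, 452, 421 and 419.9 FPKM in the si-*Fndc1* libraries 1 to 5. The lowest si-*Fndc1* library was above the highest si-Control library.

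The mean of *Ctsd* was 428 ± 14.7 FPKM in si-*Fndc1*, 13.0% above that of si-Control, from 61670 to 83420 reads per library. The log2 fold change was 0.18 (SE 0.03, adjusted p = 0.00170, edgeR). With the trend of GC content and length removed it was 0.21 (adjusted p = 0.000513, edgeR). Quantile normalization gave -0.03 (adjusted p = 0.566, limma). The 180 tested genes with a mean of at least 200 FPKM, to which *Ctsd* belongs, had a median log2 fold change of 0.17 in the edgeR fit. In that fit *Ctsd* thus moved about as its abundance class did. After quantile normalization the median of the class was -0.0032. That method gives every library the same distribution, so a class median near 0 follows from it. On the TPM scale (FPKM divided by their sum in the library), where the median of all genes was -0.13, *Ctsd* had 0.03 (adjusted p = 0.538, limma), or 0.17 relative to that median. *Gm49369*, a gene on the same strand with 0 to 494 reads per library, overlaps *Ctsd* over 6757 bases, and how shared reads were assigned is not given in the sources used here.

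*Ctsb* (ENSMUSG00000021939, chromosome 14, 63359911 to 63383372, plus strand) encodes cathepsin B, which acts both as an endopeptidase and by removing dipeptides from the carboxyl end. It had 208, 221, 217, 208 and 212 FPKM in the si-Control libraries, and 179.8, 175, 191, 181 and 197 FPKM in the si-*Fndc1* libraries. None of the si-*Fndc1* values came up to the lowest si-Control value, the nearest being si-*Fndc1* replicate 5. The mean in si-*Fndc1* was 185 ± 9.01 FPKM, and the log2 fold change was -0.20 (SE 0.04, adjusted p = 0.00184, edgeR). *Fdft1* overlaps *Ctsb* over 774 bases on the opposite strand.

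*Ctsz* (ENSMUSG00000016256, chromosome 2, 174269286 to 174280832, minus strand) encodes cathepsin Z, a carboxypeptidase that also binds integrins through its propeptide. Its si-Control libraries had 124, 126, 127, 115 and 124 FPKM, and its si-*Fndc1* libraries had 104, 101, 106, 108 and 104 FPKM. The groups did not overlap, although the library of si-Control replicate 4 stood below the other si-Control libraries. The mean in si-*Fndc1* was 104 ± 2.73 FPKM, and the log2 fold change was -0.23 (SE 0.04, adjusted p = 0.000610, edgeR). *Nelfcd* overlaps *Ctsz* over 10 bases on the opposite strand.

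*Ctsb* and *Ctsz* remained called lower under each of the 22 alternative settings, with log2 fold changes from -0.35 to -0.18 for *Ctsb* and from -0.38 to -0.22 for *Ctsz*. Correction for GC content and length gave -0.20 (adjusted p = 0.00398, edgeR) and -0.24 (adjusted p = 0.000125, edgeR). The transcripts of *Ctsz* are rich in GC (57.0%) and those of *Ctsb* poor (49.2%) relative to the median of 51.1% over tested genes.

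Because *Ctsd* makes up the largest part of the cathepsin transcripts, its share of the group was followed in each library. The summed level of the 10 genes was 843 ± 15.9 FPKM in si-Control and 853 ± 21.6 FPKM in si-*Fndc1*, and the groups overlapped. Within this sum, the share of *Ctsd* ran from 44.5% to 45.5% (si-Control) and from 49.3% to 51.2% (si-*Fndc1*). *Ctsb* went from a mean share of 25.3% to 21.7% and *Ctsz* from 14.6% to 12.3%, again without overlap. The shares of *Ctsl* (9.31% and 10.0%) and *Ctsa* (5.40% and 5.37%) overlapped between the groups. These shares follow from the same values as the fold changes and carry no test.

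Ratios between 2 genes of 1 library do not depend on the factor by which a library is scaled. The ratio of *Ctsd* to *Ctsb* was 1.76, 1.69, 1.80, 1.85 and 1.78 in the si-Control libraries, and 2.31, 2.47, 2.37, 2.33 and 2.13 in the si-*Fndc1* libraries. It was thus higher in each si-*Fndc1* library than in any si-Control library, with a mean of 2.32 ± 0.121 against 1.78 ± 0.0586. The ratio of *Ctsz* to *Ctsb*, the pair that fell, was 0.577 ± 0.0165 and 0.567 ± 0.0260, and the groups overlapped. *Ctsz* relative to *Ctsd* went from 0.326 ± 0.0165 to 0.244 ± 0.00989 without overlap. *Ctsl* relative to *Ctsb* had 0.369 ± 0.0494 and 0.465 ± 0.0380, and the groups overlapped. Like the shares, these ratios follow from the same values as the fold changes and carry no test. A trend with GC content that differs between libraries remains in such a ratio.

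Of all FPKM, the 10 cathepsins took 0.262% to 0.284% in the control libraries and 0.241% to 0.259% in the knockdown libraries, without overlap. This goes with a larger sum of FPKM over all genes in si-*Fndc1* (325534 to 347901) than in si-Control (300979 to 320728). The share of counted reads had a ratio of 0.990 and overlapped between the groups, and the summed FPKM had a ratio of 1.01.

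*Ctsl* (ENSMUSG00000021477, chromosome 13, 64507151 to 64518704, minus strand) encodes cathepsin L, a strong endopeptidase of the lysosome that is induced in wasting muscle. It had 75.3, 67.4, 81.4, 92.2 and 76.3 FPKM in the si-Control libraries, and 90.8, 86.4, 89.2, 81.3 and 80.6 FPKM in the si-*Fndc1* libraries. The highest value of all 10 was in si-Control replicate 4, so the groups overlapped. The log2 fold change was 0.13 (SE 0.07, adjusted p = 0.187, edgeR). Without si-Control replicate 4, the library that also stood apart for *Ctsz*, it was 0.20 (adjusted p = 0.0317, edgeR), and on the TPM scale it was -0.01. The pseudogene *Gm49230*, with 1 to 4 reads, overlaps *Ctsl* over 395 bases on the same strand.

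*Ctsa* (ENSMUSG00000017760, chromosome 2, 164674793 to 164681939, plus strand) encodes cathepsin A, which also holds the lysosomal β-galactosidase and neuraminidase in a stable complex. Its level was 44.7, 46.8, 46.7, 42.8 and 46.7 FPKM in si-Control, and 46.0, 44.6, 47.2, 44.3 and 46.7 FPKM in si-*Fndc1*. The groups lay on top of each other, with a log2 fold change of 0.01 (SE 0.03, adjusted p = 0.783, edgeR). Its direction was set by the processing. Correction for GC content and length gave 0.18 (adjusted p = 0.00551, edgeR) and TPM gave -0.14 (adjusted p = 0.00813, limma). On its opposite strand lie *Pltp*, which shares 502 bases with it, and *Neurl2*.

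*Ctsh* (ENSMUSG00000032359, chromosome 9, 89936205 to 89958142, plus strand) encodes cathepsin H, an aminopeptidase. It had 1.31, 1.05, 1.47, 1.17 and 1.30 FPKM in si-Control, and 1.69, 1.49, 1.38, 1.40 and 1.51 FPKM in si-*Fndc1*. Of the 5 si-*Fndc1* libraries, 3 were above every si-Control library. Its log2 fold change of 0.25 was larger in size than that of any other tested member, but so was its spread relative to that of the abundant members (SE 0.10, adjusted p = 0.0682, edgeR). Without si-Control replicate 3, its highest si-Control library, the log2 fold change was 0.31 (adjusted p = 0.0339, edgeR).

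*Ctsf* (ENSMUSG00000083282, chromosome 19, 4905158 to 4910946, plus strand) encodes cathepsin F, a cysteine protease with a long propeptide. It had 2.43, 1.98, 2.44, 2.16 and 2.23 FPKM in si-Control, and 1.87, 2.12, 2.24, 1.63 and 2.67 FPKM in si-*Fndc1*. The si-*Fndc1* libraries held both the lowest and the highest value. The log2 fold change was -0.09 (SE 0.12, adjusted p = 0.607, edgeR), and it was 0.08 with GC content and length corrected.

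*Ctsc* (ENSMUSG00000030560, chromosome 7, 87927293 to 87960096, plus strand) encodes dipeptidyl peptidase 1, which activates the serine proteases of immune cell granules. It is the member that the paper names, among genes whose role in myogenesis it calls undocumented. The paper measured its mRNA in differentiating C2C12 cells and reports no change early and a higher level late in differentiation. That comparison over time was not made here. Its reads numbered 70, 139, 111, 109 and 72 in the si-Control libraries, and 106, 139, 101, 127 and 103 in the si-*Fndc1* libraries. The highest count was the same in both groups, and the si-*Fndc1* range lay within the si-Control range. As FPKM the means were 0.214 ± 0.0637 and 0.258 ± 0.0326, which did not differ beyond the spread of the libraries (two-sided exact permutation test, p = 0.230). Without the filter on low levels, edgeR gave a log2 fold change of 0.27 (SE 0.21, adjusted p = 0.427). At about 100 reads per library the error leaves room for changes of the size seen for *Ctsd*, *Ctsb* and *Ctsz*.

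*Ctsk* (ENSMUSG00000028111, 95406567 to 95416673) encodes cathepsin K, the collagen-degrading protease of osteoclasts, and *Ctss* (ENSMUSG00000038642, 95434097 to 95463714) encodes cathepsin S, which processes antigens in macrophages and dendritic cells. They are neighbours on chromosome 3, on the same strand, with 17423 bases between the end of *Ctsk* and the start of *Ctss*. *Ctsk* had 15, 24, 24, 3 and 11 reads in the si-Control libraries, and 32, 14, 8, 6 and 0 in the si-*Fndc1* libraries. *Ctss* had 4, 4, 0, 0 and 14 reads in si-Control, and 4, 0, 14, 8 and 0 in si-*Fndc1*. Both genes overlapped between the groups, and no difference could be detected at this depth. The pseudogene *Hmgb1-ps5*, with 0 to 19 reads, lies within *Ctss* on the same strand, so that its few reads are uncertain.

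The markers of macrophages, cells that could contribute *Ctss* and *Ctsc*, were near 0. Over 12 genes they summed to between 0.817 and 1.44 FPKM (si-Control) and between 0.807 and 1.57 FPKM (si-*Fndc1*). *Ptprc*, *Adgre1* and *Tyrobp* had no read in any library. *Cd68*, which encodes a lysosomal glycoprotein, was the most abundant of them, at 0.788 ± 0.223 and 0.690 ± 0.133 FPKM, and was the only one tested (log2 fold change -0.18, adjusted p = 0.556, edgeR). The hepatocyte markers differed more among si-*Fndc1* libraries, with sums of 100.1, 170.2, 167, 169.6 and 47.5 FPKM in replicates 1 to 5. Over the same libraries the level of *Ctsb* was 179.8, 175, 191, 181 and 197 FPKM. That of *Ctsz* was 104, 101, 106, 108 and 104 FPKM, and that of *Ctsd* 416, 431, 452, 421 and 419.9 FPKM. The part of liver transcripts in the cathepsin differences was not tested. *Alb*, the most abundant of those markers, had 1.06 ± 1.26 FPKM in si-Control and 44.3 ± 19.5 FPKM in si-*Fndc1*.

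To see how far the 7 differences depend on the processing, they were set side by side over 6 fits and over the 10 fits that leave out 1 library each. In the fits without 1 library, *Ctsd* stayed between 0.16 and 0.20, *Ctsb* between -0.22 and -0.18 and *Ctsz* between -0.26 and -0.22. Correction for GC content and length called *Ctsd* and *Ctsa* higher and *Ctsb* and *Ctsz* lower, when it called 11.4% of 11185 genes higher and 12.2% lower. TPM called none of the 7 higher, with 7.57% of all genes higher, and *Ctsa*, *Ctsb* and *Ctsz* lower, with 34.3% lower. Quantile normalization called 0 of the 7 higher and *Ctsb* and *Ctsz* lower, against 15.7% and 18.7% of all genes (limma). In all these fits *Ctsd* lay above *Ctsb* and *Ctsz*.

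**Figure D3:**
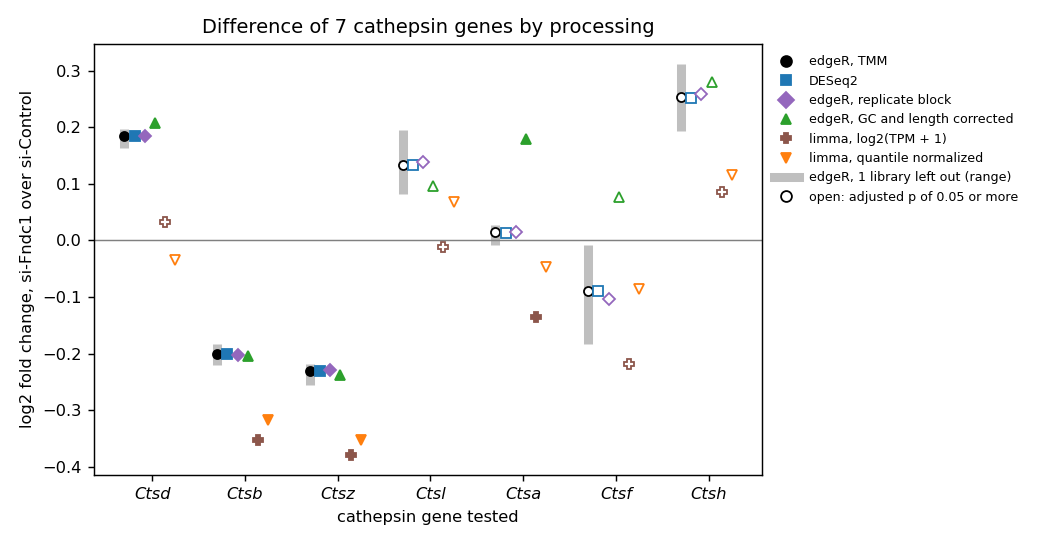
Log2 fold change (si-*Fndc1* over si-Control) of the 7 tested cathepsin genes under 6 fits, with filled symbols at an adjusted p-value under 0.05 and a grey bar for the range over 10 edgeR fits that each leave out 1 library. *Ctsb* and *Ctsz* are below 0 and filled in each fit, *Ctsd* goes from 0.21 with the GC and length correction to -0.03 with quantile normalization, and *Ctsa* is filled above 0 in one fit and below 0 in another.

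Of 13 other cathepsin genes in the table, 10 had no read in any library and 2 were tested. *Ctso* encodes a widely expressed cysteine cathepsin, and had 2.52 ± 0.220 FPKM in si-Control and 3.02 ± 0.423 FPKM in si-*Fndc1* (log2 fold change 0.27, adjusted p = 0.0697, edgeR). *Ctsw*, known from cytotoxic lymphocytes, had 2.05 ± 0.0635 and 1.64 ± 0.201 FPKM without overlap (log2 fold change -0.30, adjusted p = 0.0354, edgeR), a call that 12 of 21 alternative settings did not make.

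The enzymes that share the lysosome with the cathepsins were compared next. Of 43 other lysosomal hydrolases and their activators 42 were tested, of which 6 rose (14.3%, against 17.3% of all tested genes) and 11 fell (26.2%, against 17.2%), with a median log2 fold change of -0.01. After correction for GC content and length 7 were called lower, when 12.2% of all genes were. On the TPM scale 2 were called higher and 20 lower, when 7.57% of all genes were called higher and 34.3% lower. *Psap*, the precursor of the saposins that help degrade sphingolipids, was the most abundant, with 486 ± 11.9 FPKM in si-Control and 447 ± 7.66 FPKM in si-*Fndc1*, and its log2 fold change was -0.11 (SE 0.03, adjusted p = 0.0103, edgeR). *Scpep1*, a serine carboxypeptidase related to *Ctsa*, fell from 90.4 ± 3.88 to 76.3 ± 2.84 FPKM (log2 fold change -0.24, adjusted p = 0.000707, edgeR).

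Over the lysosome genes of KEGG without the 10 cathepsins, 16 of 99 rose (16.2%) and 26 fell (26.3%), and over those of GO 57 of 301 rose (18.9%) and 77 fell (25.6%), against 17.3% and 17.2% of all tested genes. On the TPM scale, which called 7.57% of all genes higher and 34.3% lower, the numbers were 4 and 52 for KEGG and 24 and 134 for GO. The medians were -0.08 and -0.03 in the edgeR fit, so the cathepsins, with a median of 0.01, were not placed apart from either list by these counts.

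Among 16 lysosomal membrane proteins, 6 rose (37.5%) and 3 fell (18.8%), against 17.3% and 17.2% of all tested genes. TPM called 0 higher and 4 lower (7.57% and 34.3% of all genes), and quantile normalization 3 higher and 4 lower (15.7% and 18.7% of all genes). *Lamp1*, the main glycoprotein of the lysosomal membrane, went from 324 ± 3.51 FPKM to 378 ± 8.74 FPKM without overlap (log2 fold change 0.23, adjusted p = 0.000146, edgeR). The log2 fold change of *Lamp1* was 0.18 with GC content and length corrected and 0.02 after quantile normalization (adjusted p = 0.622, limma). *Cd63*, a tetraspanin of late endosomes, fell from 495 ± 25.7 to 408 ± 33.4 FPKM (log2 fold change -0.27, adjusted p = 0.00457, edgeR). *Npc1*, which exports cholesterol from lysosomes, fell from 7.82 ± 0.221 to 6.71 ± 0.446 FPKM (log2 fold change -0.21, adjusted p = 0.00413, edgeR), and had -0.10 (adjusted p = 0.244, edgeR) with the correction.

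**Figure D4:**
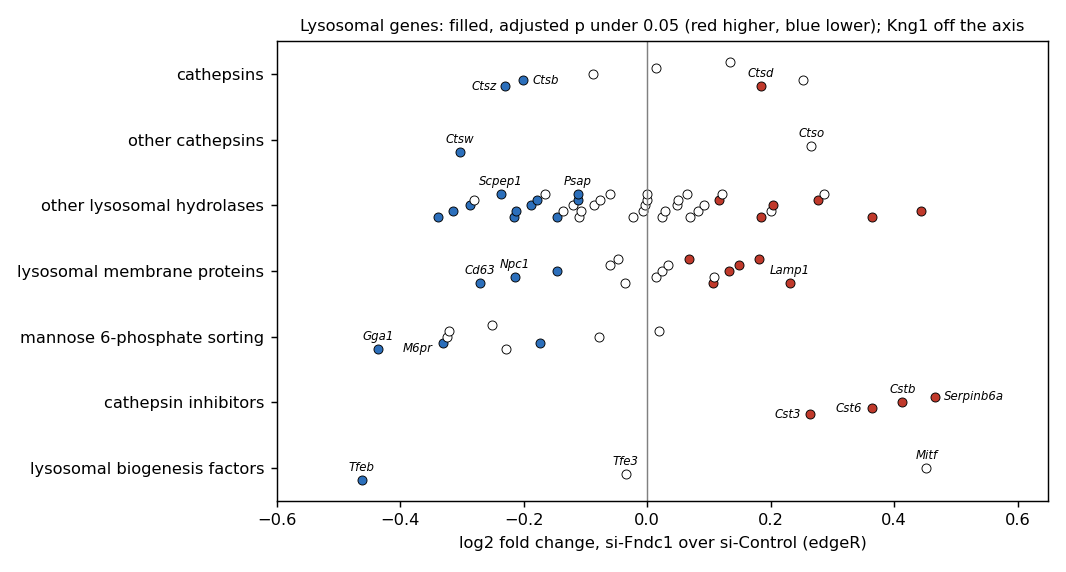
Log2 fold change (si-*Fndc1* over si-Control, edgeR) of each tested gene of 7 lists, 1 point per gene, spread vertically for legibility only. Filled points had an adjusted p-value under 0.05 (red higher, blue lower), and *Kng1*, at 5.96, is off the axis. Under this fit the 9 sorting genes have 3 called lower and 0 higher, and the 4 inhibitors drawn are called higher. The same fit called 17.2% of all tested genes lower and 17.3% higher. TPM called 6 sorting genes lower, when it called 34.3% of all genes lower. With TPM 3 of the 5 tested inhibitors were called higher, against 7.57% of all genes. *Kng1* is among them and passed the filter only through si-*Fndc1*.

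The genes that sort cathepsins to lysosomes gave 3 calls of 9, all lower (33.3%, against 17.2% of all tested genes), with a median log2 fold change of -0.25. After correction for GC content and length 2 were called lower (12.2% of all genes) and the median was -0.15. *M6pr*, the cation-dependent mannose 6-phosphate receptor, fell from 25.6 ± 0.956 to 20.2 ± 0.643 FPKM without overlap (log2 fold change -0.33, adjusted p = 9.35e-05, edgeR). *Igf2r*, the larger receptor, fell from 12.4 ± 0.662 to 10.9 ± 0.633 FPKM with overlap (log2 fold change -0.17, adjusted p = 0.0186, edgeR). *Gga1*, an adaptor that loads the receptors into vesicles at the Golgi, fell from 27.5 ± 0.60 to 20.2 ± 0.969 FPKM (log2 fold change -0.44, adjusted p = 2.00e-05, edgeR). With GC content and length corrected, *M6pr* had -0.39 (adjusted p = 6.81e-05, edgeR), *Gga1* -0.16 (adjusted p = 0.00649, edgeR) and *Igf2r* -0.06 (adjusted p = 0.286, edgeR).

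The other 6 sorting genes were not called. The adaptors *Gga2* and *Gga3* had log2 fold changes of -0.25 (adjusted p = 0.0834, edgeR) and -0.32 (adjusted p = 0.145, edgeR). *Sort1*, the sorting receptor sortilin, had -0.23 (adjusted p = 0.164, edgeR). *Nagpa*, *Gnptab* and *Gnptg*, which make the mannose 6-phosphate tag, had -0.32, -0.08 and 0.02 (adjusted p = 0.187, 0.571 and 0.841, edgeR), and that of *Gnptg* changed sign to -0.04 with the correction.

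A list of 11 cathepsin inhibitor genes held cystatins, serpins and others. Of these, 5 were tested and 5 were called higher, against 17.3% of all tested genes. *Kng1*, 1 of the 5, had 0.0193 FPKM in si-Control and passed the filter of 0.5 FPKM only through the si-*Fndc1* libraries. Its direction was thus fixed by the filter. *Cst3*, *Cstb*, *Serpinb6a* and *Cst6* had means above 0.5 FPKM in both groups. Whether each of them inhibits the cathepsins examined here was not tested. *Cst3*, cystatin C, the main secreted inhibitor, had 249 ± 18.2 FPKM in si-Control and 298 ± 21.8 FPKM in si-*Fndc1*, with overlap (log2 fold change 0.26, adjusted p = 0.00681, edgeR). *Cstb*, cystatin B, which acts in the cytosol, rose from 101 ± 5.57 to 134 ± 8.93 FPKM without overlap (log2 fold change 0.41, adjusted p = 0.000191, edgeR). *Serpinb6a*, an intracellular serpin, rose from 53.9 ± 3.08 to 74.1 ± 4.73 FPKM without overlap (log2 fold change 0.47, adjusted p = 8.87e-05, edgeR). *Cst6* had 1.51 ± 0.158 and 1.93 ± 0.220 FPKM (log2 fold change 0.36, adjusted p = 0.0188, edgeR).

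The fifth, *Kng1*, encodes the plasma protein kininogen, which the liver makes. Its level was 0.0193 FPKM on average in si-Control, from 0 to 20 reads per library, and 1.19 FPKM in si-*Fndc1*, from 84 to 448 reads. The log2 fold change was 5.96 (adjusted p = 0.000506, edgeR). The 11 tested hepatocyte markers rose too. Like *Kng1*, they passed the filter only through si-*Fndc1*, except for *Alb*. The calls of *Cst3* and *Cst6* were not made on the TPM scale, nor that of *Cst3* after quantile normalization. The other 3 held under all alternatives fitted for them. With GC content and length corrected, *Cstb* had 0.14 (adjusted p = 0.0106, edgeR) and *Serpinb6a* 0.54 (adjusted p = 0.000115, edgeR).

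Of the transcription factors of lysosomal genes, *Tfeb* fell from 3.61 ± 0.290 to 2.60 ± 0.174 FPKM without overlap (log2 fold change -0.46, SE 0.07, adjusted p = 0.000608, edgeR). This call was not made with GC content and length corrected (-0.16, adjusted p = 0.0937, edgeR). *Tfe3* had 4.82 ± 0.317 and 4.68 ± 0.185 FPKM (log2 fold change -0.04, adjusted p = 0.634, edgeR), and 0.21 (adjusted p = 0.00394, edgeR) with the correction. *Mitf* was not called (log2 fold change 0.45, SE 0.33, adjusted p = 0.324, edgeR). Among the members with CACGTG upstream, *Ctsd* was called higher and *Ctsa*, *Ctsf* and *Ctsl* were not called, and under quantile normalization none of the 4 was called (*Ctsd* -0.03).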

How the data were processed

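RNA-sequencing of C2C12 cells (5 si-Control and 5 si-*Fndc1* libraries) was analysed from the authors' table. The authors deposited read counts without normalization, and beside each count an FPKM value, listed as 0.0001 at no reads. The paper's methods name TopHat, mm10, htseq-count and 4 libraries, the series description STAR, mm9 and another time point, and the submitters' processing notes GRCm39, cutadapt 1.9 and FastQC. Coordinates were given as the table lists them. Whether counting used the strand is not given in the sources used here.

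Counts were tested with edgeR 4.0.16 (quasi-likelihood, TMM, R 4.3.3) where the mean FPKM reached 0.5. The standard error was the log2 fold change divided by the square root of F. Alternatives were DESeq2 1.42.0, which the paper names, other scalings and filters, limma 3.58.1 on log2(FPKM + 1), log2(FPKM + 0.1), quantile-normalized values and, chosen after the data were seen, log2(TPM + 1), a replicate block, fits without 1 library, and an offset for GC content and length for 82.6% of the tested genes (GC content from NCBIM37 transcripts). The tests were checked on simulated data. Python 3.11.15, pandas 2.3.3, numpy 2.4.6, scipy 1.17.1 and matplotlib 3.10.9 were used.

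The members and gene lists were chosen with earlier results of these data known. Named are all members, every tested gene of the other cathepsins and of lists under 10 genes, and from longer lists the gene with the smallest p-value in each direction and the most abundant one. A gene that this rule names is not reported here. *Cstb*, *Cst6*, *Kng1* and overlapping genes were added after their values were seen.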

Additional observations from a re-analysis of the deposited data

Results flagged for a closer look

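The level of *Ctsz* in si-Control replicate 4, 115 FPKM, lay far below the other si-Control libraries (124 to 127 FPKM), with a gap to the nearest of them that made up 0.754 of the range of the group. Without this library the call of *Ctsz* remained. The level of *Ctss* in si-Control replicate 5, 0.129 FPKM from 14 reads, lay far above the other si-Control libraries, with a gap of 0.750 of the range. It rests on few reads. Of 20 groups of 5 libraries examined in this way (10 genes in 2 groups) 2 held such a library, and chance alone gives about 1 in 20.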

How the results depend on the processing

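*Ctsb* and *Ctsz* were called lower under all 22 alternatives. *Ctsd* was called higher under 20, and had -0.035 with quantile normalization and 0.033 on the TPM scale. The number of cathepsins called higher was 2 with GC and length correction, also with the replicate block added, 0 with quantile normalization and 0 with TPM, and 1 to 2 without 1 library. For the other hydrolases called lower (11), the replicate block gave 6, GC and length correction 7, both together 4, TPM 20, and fits without 1 library 8 to 12. For those called higher (6), GC correction with the block gave 3, TPM 2, and fits without 1 library 4 to 7. Of all genes, 17.3% were called higher in the main fit, 11.4% with GC correction, 15.7% with quantile normalization and 7.57% with TPM. Called lower were 17.2%, 12.2%, 18.7% and 34.3% in the same order. In either direction 4663 genes were called in the main fit, 3572 with the block and 1749 with GC correction and block. Signs changed for *Ctsa* (-0.047 with quantile normalization, -0.14 with TPM, -0.0085 to 0.027 without 1 library), *Ctsf* (0.077 with GC correction, 0.061 with the block added), *Ctsl* (-0.012 with TPM), *Gnptg* (-0.044 with GC correction, -0.044 with the block added, -0.13 with TPM, -0.015 to 0.057 without 1 library) and *Tfe3* (0.21 with GC correction, 0.21 with the block added). The cause was not tested.

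Same-numbered libraries did not deviate together (correlations of -0.05 to 0.05), which cannot exclude that they shared a culture or batch. A replicate block left 1 cathepsin higher and 2 lower. Over all genes 4663 were called, 3572 with the block, 5019 by DESeq2, 2639 with GC and length correction and 1749 with both correction and block. Depth limits *Ctsc*, *Ctsk* and *Ctss*, which no test with the filter covered.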
